A study of Homo sapiens with 10 samples.

Results

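The retinoic acid receptor genes, PML and their target genes were examined in NB4, an acute promyelocytic leukemia (APL) cell line that carries the PML-RARA fusion of the t(15;17) translocation. The set held 10 genes, taken by symbol from the protein-coding rows of 2 RNA-seq tables: the receptor genes RARA, RARG, RXRA and RXRB, the fusion partner PML, and the target genes CYP26A1, CYP26B1, DHRS3, TGM2 and PRAM1. They are 10 of 19975 protein-coding genes and of 60603 rows in each table. In the knockdown experiment, NB4 cells were transduced with the lentiviral pLKO.1 puro vector, either empty (EV) or coding for a hairpin against GSE1 (shA1 or shB2), and were harvested after 48 h, with 2 libraries for each of the 3 groups. In the inhibitor experiment, NB4 cells that were not transduced received DMSO or 2 µM MC2580, an inhibitor of the histone demethylase LSD1, for 24 h, with 2 libraries for each of the 2 groups. All 10 libraries came from 1 cell line.

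The value used for each gene was the base mean, the normalized read count that the authors averaged over all libraries of an experiment, controls and treated together. The knockdown table gives the base mean beside each of the 2 hairpins, with identical values in all 60603 rows, and it was therefore taken as 1 mean over all 6 libraries. A gene thus had 1 value for the 6 libraries of the knockdown experiment and 1 for the 4 libraries of the inhibitor experiment, without an SD. From these values EV could not be set against a hairpin or DMSO against MC2580, and the authors' own comparisons were not used. The tables do not give the depth of a library, and no value below rests on a test. The base means summed to 40543130 in the knockdown and 41201112 in the inhibitor experiment. GSE1, the target of the hairpins, had base means of 2963 and 4441, and KDM1A, which codes for LSD1, of 7648 and 6285, but as pooled means these do not check the knockdown or the labels. Of 6 markers of promyelocytes, 5 had base means of 10 or more in both tables, led by the myeloperoxidase gene MPO at 506765 and 824818, whereas the neutrophil elastase gene ELANE was at 1.10 and 3.87. Among markers of other cells, the T cell gene CD3D reached 866 and 869 while CD3E was at 1.55 and 2.98. The B cell, erythroid and fibroblast markers stayed between 0 and 31.3.

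Retinoic acid acts through nuclear receptors. A retinoic acid receptor (RAR) pairs with a retinoid X receptor (RXR) on DNA elements made of repeated hexamer sites, where the pair holds corepressors without ligand and exchanges them for coactivators once retinoic acid binds. In APL the PML-RARA protein occupies such elements and keeps target genes silent, and pharmacological doses of retinoic acid release this block and let the promyelocytes mature. Among the targets, CYP26A1 and CYP26B1 code for enzymes that oxidize and clear retinoic acid, DHRS3 for a reductase that returns retinaldehyde to retinol, TGM2 for tissue transglutaminase, and PRAM1 for an adaptor protein of myeloid cells that was described as regulated by PML-RARA.

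Promoter sequence from RefSeq on GRCh38.p14, from 250 bases before to 50 bases after an annotated start, was at hand for 7 of the 10 genes, in 14 windows. PML, TGM2 and PRAM1 had no such window and were not searched. The windows were searched on both strands for 4 hexamer sites, namely the consensus AGGTCA, its common variant AGTTCA, the related form GGGTCA and finally the form GGTTCA, and for direct repeats of these with a spacer of 1, 2 or 5 bases (DR1, DR2 and DR5), the arrangements that RAR and RXR pairs are known to bind. Hexamer sites, which are part of every repeat, occurred in 5 of the 14 windows, beside 38.6% of all 35116 windows of that length. A direct repeat was found in 1 of the 14 windows, where it was a DR5. CYP26A1 has 2 of the windows, and the repeat lies in that of the downstream start (position 93073893), while the window of the upstream start (position 93073475) held 0 hexamer sites. Over all windows a DR5 was present in 31 (0.0883%), a DR1 in 46 (0.131%) and a DR2 in 14 (0.0399%). The element lies on the minus strand at chr10:93073803-93073819, from 90 to 74 bases before the downstream start and thus inside the annotated span of CYP26A1. It is shown alone in its own reading direction, with the 2 hexamer sites in capitals and the spacer in lower case, and then within the 150 bases before that start on the plus strand (chr10:93073743-93073892), where the same hexamer sites in capitals read as their reverse complement.
CYP26A1 DR5, minus strand: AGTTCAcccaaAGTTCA
CYP26A1 promoter, plus strand: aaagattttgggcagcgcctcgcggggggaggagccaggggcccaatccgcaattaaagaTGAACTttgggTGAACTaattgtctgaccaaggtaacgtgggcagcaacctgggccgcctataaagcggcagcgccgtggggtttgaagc
The match describes these letters, and binding was not measured in the libraries.

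RXRA and RARA were the most highly expressed receptor genes in both experiments, and RARG the lowest of the 4 receptor genes. Levels of different genes were compared per kilobase, as the base mean divided by the summed length of all its annotated exons, overlapping exons counted once. RXRA (ENSG00000186350.11, chr9:134317098-134440585, plus strand), the common partner of RAR, had base means of 10642 in the knockdown and 11128 in the inhibitor experiment, which gave levels of 881 and 921 per kilobase. These levels placed RXRA above 88.3% and 88.5% of the protein-coding genes whose base mean exceeded 0. RARA (ENSG00000131759.18, chr17:40309180-40357643, plus strand), the receptor joined to PML in the fusion, had base means of 3015 and 3512 and levels of 636 and 740.5 per kilobase, at percentiles 83.9 and 85.8.

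RXRB (ENSG00000204231.10, chr6:33193588-33200665, minus strand) was lower than RXRA, with base means of 506 and 595 and levels of 129.9 and 153 per kilobase, at percentiles 57.2 and 60.8. The level of RXRA was 6.78 times that of RXRB in the knockdown and 6.03 times in the inhibitor experiment. These ratios depended on the gene length used and came to 10.5 and 9.35 with the longest transcript and to 24.4 and 21.7 with the longest coding sequence, and RXRA was the higher of the pair by all 3 lengths. RARG (ENSG00000172819.17, chr12:53210567-53232980, minus strand), a receptor best known from skin, had base means of 74.6 and 34.4 and levels of 14.5 and 6.71 per kilobase, at percentiles 36.8 and 31.8. RARA exceeded RARG 43.7-fold in the knockdown and 110.4-fold in the inhibitor experiment, and at least 36.0-fold by every length definition. The remaining receptor genes of both families were lower still in normalized counts, with base means of 2.80 and 7.03 for RARB and of 3.68 and 0.457 for RXRG.

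PML (ENSG00000140464.19, chr15:73994673-74047827, plus strand), which codes for the scaffold protein of nuclear bodies, had base means of 5981 and 5821 and levels of 472 and 459 per kilobase, at percentile 79.1 in both experiments. Its level was 0.743 times that of RARA in the knockdown and 0.620 times in the inhibitor experiment by the length of all exons. With the longest transcript the same ratio was 1.17 and 0.975, and with the longest coding sequence 1.08 and 0.898, so that the order of PML and RARA in the knockdown experiment turned with the length used. The counts of both genes are sums over all their transcripts, of which 22 are annotated for PML and 10 for RARA. Reads from the fused part of the PML-RARA transcript fall on the exons of PML and RARA, and the fusion and the unrearranged genes cannot be told apart in these values.

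**Figure D1:**
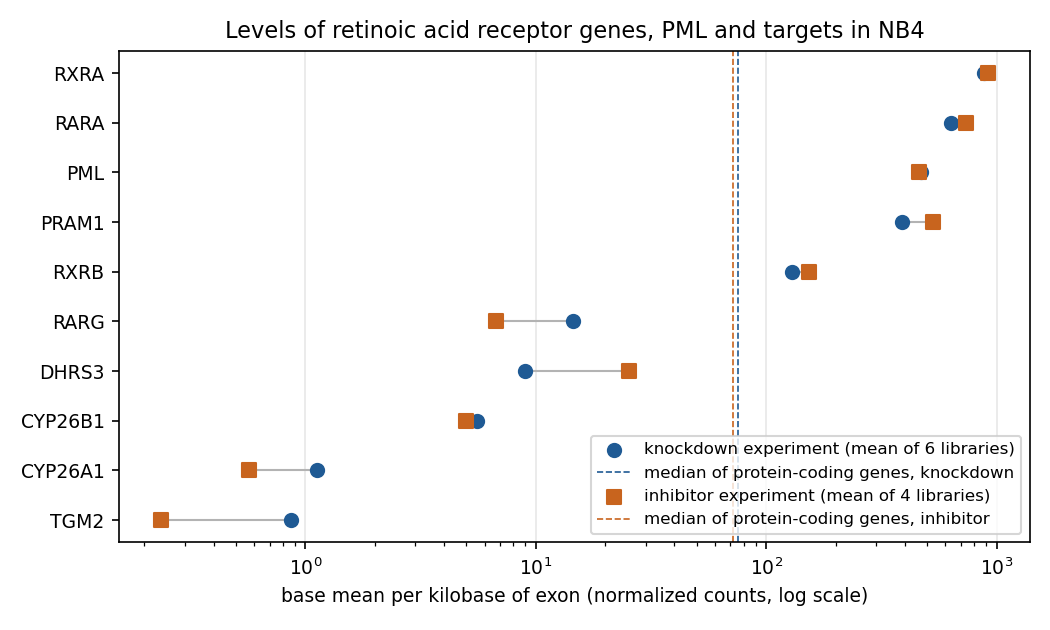
Base mean per kilobase of exon (log scale) of the 10 genes in the knockdown experiment (circles, authors' mean of 6 libraries) and the inhibitor experiment (squares, authors' mean of 4 libraries). The dashed lines mark the median of protein-coding genes whose base mean exceeded 0, which was 75.2 in the knockdown and 71.9 in the inhibitor experiment, and 5 genes (RXRA, RARA, PML, PRAM1 and RXRB) lie above it in both.

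The 5 target genes spread over a wider range than the receptors. PRAM1 (ENSG00000133246.12, chr19:8490056-8502640, minus strand) was the highest, with base means of 1279 and 1741 and levels of 389 and 529 per kilobase, at percentiles 75.8 and 81.3. It lay below RARA by all 3 lengths, with RARA over PRAM1 between 1.35 and 3.30. In the inhibitor experiment PRAM1 stood above PML by the length of all exons and below it by the other 2 lengths, so these neighbours have no firm order.

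The genes of retinoid turnover had low levels. DHRS3 (ENSG00000162496.9, chr1:12567910-12618210, minus strand) had base means of 31.7 and 89.5 and levels of 9.01 and 25.5 per kilobase. CYP26B1 (ENSG00000003137.8, chr2:72129238-72147862, minus strand) had base means of 26.9 and 24.2 and levels of 5.56 and 4.99 per kilobase. CYP26A1 (ENSG00000095596.12, chr10:93073475-93077885, plus strand), the gene with the DR5 shown above, was near the limit of detection, with base means of 3.32 and 1.69, which are 19.9 normalized counts summed over the 6 libraries and 6.77 over the 4. Its level was 1.12 and 0.571 per kilobase, and CYP26B1 exceeded it 4.96-fold and 8.75-fold.

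TGM2 (ENSG00000198959.12, chr20:38127385-38166578, minus strand) had base means of 6.86 and 1.87, or 41.2 and 7.48 summed normalized counts, and levels of 0.863 and 0.235 per kilobase. TGM2 and CYP26A1 were the lowest of the 10 genes in both experiments, at percentiles 21.1 and 11.3 for TGM2 and 22.6 and 17.7 for CYP26A1. Their order in the knockdown experiment turned when the coding length was used. The count of normalized reads behind these genes is too small to rank them firmly.

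Across the 10 genes, 8 reached a base mean of 10 in each experiment, beside 63.1% and 63.0% of all protein-coding genes. The median level of the 10 genes was 72.2 and 89.1 per kilobase, next to 75.2 and 71.9 for the protein-coding genes whose base mean exceeded 0. The order from high to low was RXRA, RARA, PML, PRAM1, RXRB, RARG, DHRS3, CYP26B1, CYP26A1 and TGM2 in the knockdown experiment. In the inhibitor experiment PRAM1 changed places with PML, and DHRS3 with RARG.

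Some exons are shared with other genes, and the library kit does not mark the strand of a read. RXRB shares 361 exon bases (9.26% of its exon length) with SLC39A7 on the opposite strand, which had base means of 1980 and 1552. TGM2 shares 396 bases (4.98%) with RPRD1B on the opposite strand, at 2196 and 2030. CYP26A1 shares 750 bases (25.3%) with the noncoding gene ENSG00000285846 on the same strand. RARA shares 556 bases (11.7%) with its antisense gene RARA-AS1, at 1.68 and 2.99. How many reads of RXRB, TGM2 or CYP26A1 came from these neighbours was not tested.

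The levels in the 2 experiments were then set side by side, to describe how far the pooled means of each gene differed. Each mean pools control and treated libraries, so a gene with close means may still have changed within an experiment. The experiments differ in transduction, time and treatment together and were normalized separately, so these cannot be told apart and the differences are a description. Each difference is the log2 ratio of the base means, inhibitor over knockdown, after adding 1 to both, centred on the median of the protein-coding genes that reached a base mean of 10 in both. Of 12354 such genes, 669 (5.42%) differed by more than 1, with a median absolute difference of 0.31. The 8 members with such base means had a median absolute difference of 0.29, and 2 of them, DHRS3 and RARG, differed by more than 1. Both genes were lowly expressed, and each was therefore also set beside genes of similar level.

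DHRS3 was 2.90-fold higher in the inhibitor experiment, a difference of 1.54, and 5.2% of the 500 protein-coding genes nearest to it in level differed by at least as much. RARG was 2.04-fold lower in the inhibitor experiment, a difference of -1.03, which 14.6% of its 500 neighbours equalled or exceeded. With 10 rather than 1 added to both values, RARG differed by -0.87 and no longer by more than 1. TGM2 differed by -1.39, beside 16.0% of its neighbours, but its base means lay below 10 and the difference shrank to -0.44 in the same way. PRAM1 differed by 0.51 (21.4% of its neighbours). CYP26A1, with base means below 10, differed by -0.62 (54.2% of its neighbours). The other 5 genes differed by less, RXRB by 0.30, RARA by 0.29, RXRA by 0.13, PML by 0.03 and CYP26B1 by -0.08, and between 45.8% and 94.8% of their neighbours differed as much. RXRA, RARA, RXRB and PML thus differed by at most 0.30, beside a median absolute difference of 0.31 over all genes that reached a base mean of 10 in both. Such closeness was not particular to these genes. DHRS3 and RARG exchanged their order, RARG over DHRS3 being 1.61 in the knockdown and 0.263 in the inhibitor experiment.

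**Figure D2:**
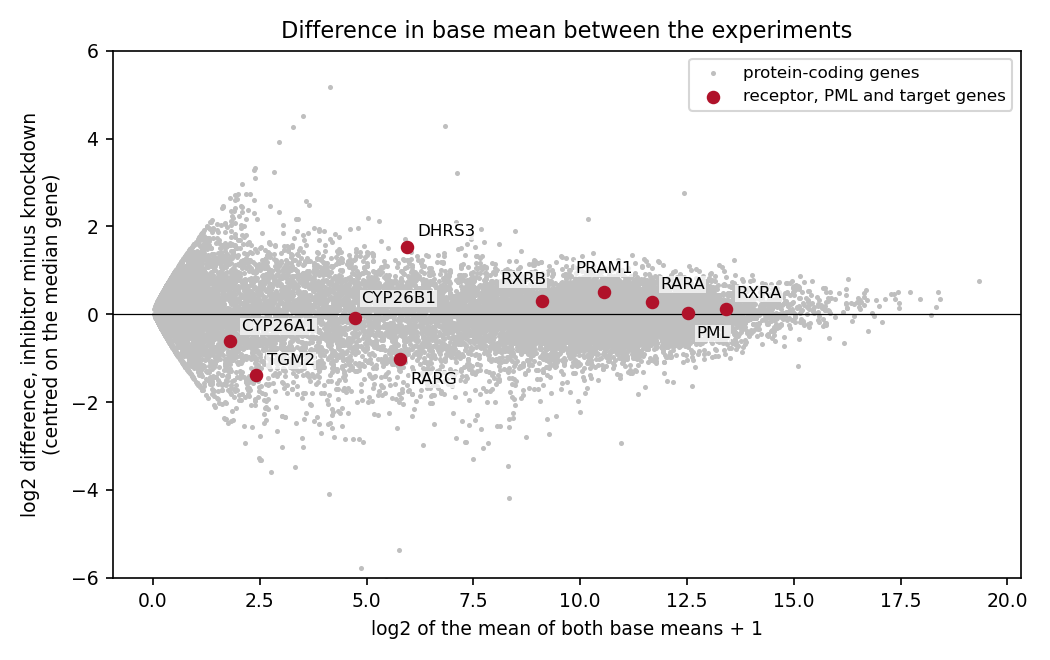
Log2 difference in base mean, inhibitor minus knockdown experiment, against the log2 of the mean of both base means plus 1, for protein-coding genes (grey) and the 10 genes (red). DHRS3 lies at 1.54 and RARG at -1.03, RXRA, RARA, PML and RXRB lie between 0.03 and 0.30, and 4 genes fall outside the vertical axis.

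Other genes of retinoid handling were counted by their role in a list of 34, of which 24 reached a base mean of 10 in the knockdown and 23 in the inhibitor experiment (70.6% and 67.6%, beside 63.1% and 63.0% of all protein-coding genes). The cofactors of the receptors were the best represented, with 9 of 9 in the knockdown and 8 of 9 in the inhibitor experiment. The highest level per kilobase among these 9 was that of HDAC3, which codes for a histone deacetylase of corepressor complexes, at 1017 and 1136. The lowest was NRIP1, which codes for a corepressor of liganded receptors, at 1.20 and 0.382.

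Of 10 genes for the synthesis and storage of retinoids, 6 reached a base mean of 10 in both experiments. Of all protein-coding genes, 63.1% reached it in the knockdown and 63.0% in the inhibitor experiment. The retinol dehydrogenase gene RDH14 was the highest of the 10, at 336 and 424 per kilobase. Transcripts of the enzymes that make retinoic acid from retinaldehyde were scarce. ALDH1A1 was listed at a base mean of 0 in the knockdown experiment and at 0.319 in the inhibitor experiment, and ALDH1A2 and ALDH1A3 had base means of 6.50 and 7.94 in the knockdown and of 1.92 and 4.18 in the inhibitor experiment. LRAT, which esterifies retinol for storage, had base means of 0.743 and 0.950. CYP26C1, the clearance enzyme beside CYP26A1 and CYP26B1, had base means of 0.896 and 0.283.

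Of 5 binding and uptake genes, 3 reached a base mean of 10 in both experiments, beside 63.1% and 63.0% of all protein-coding genes. RBP4, which codes for the plasma carrier of retinol, was the highest at 140.2 and 119.8 per kilobase, and the lowest of the 5 were CRABP1, which codes for a cellular retinoic acid-binding protein, at 0.311 in the knockdown experiment and RBP7, which codes for a cellular retinol-binding protein, at 1.21 in the inhibitor experiment. Of 7 genes described as responsive to retinoids in myeloid cells, 6 reached it in both experiments, with the granulocytic transcription factor gene CEBPE the highest at 1283 and 2833 per kilobase and RARRES1 the lowest at a listed 0 and 0.259.

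**Figure D3:**
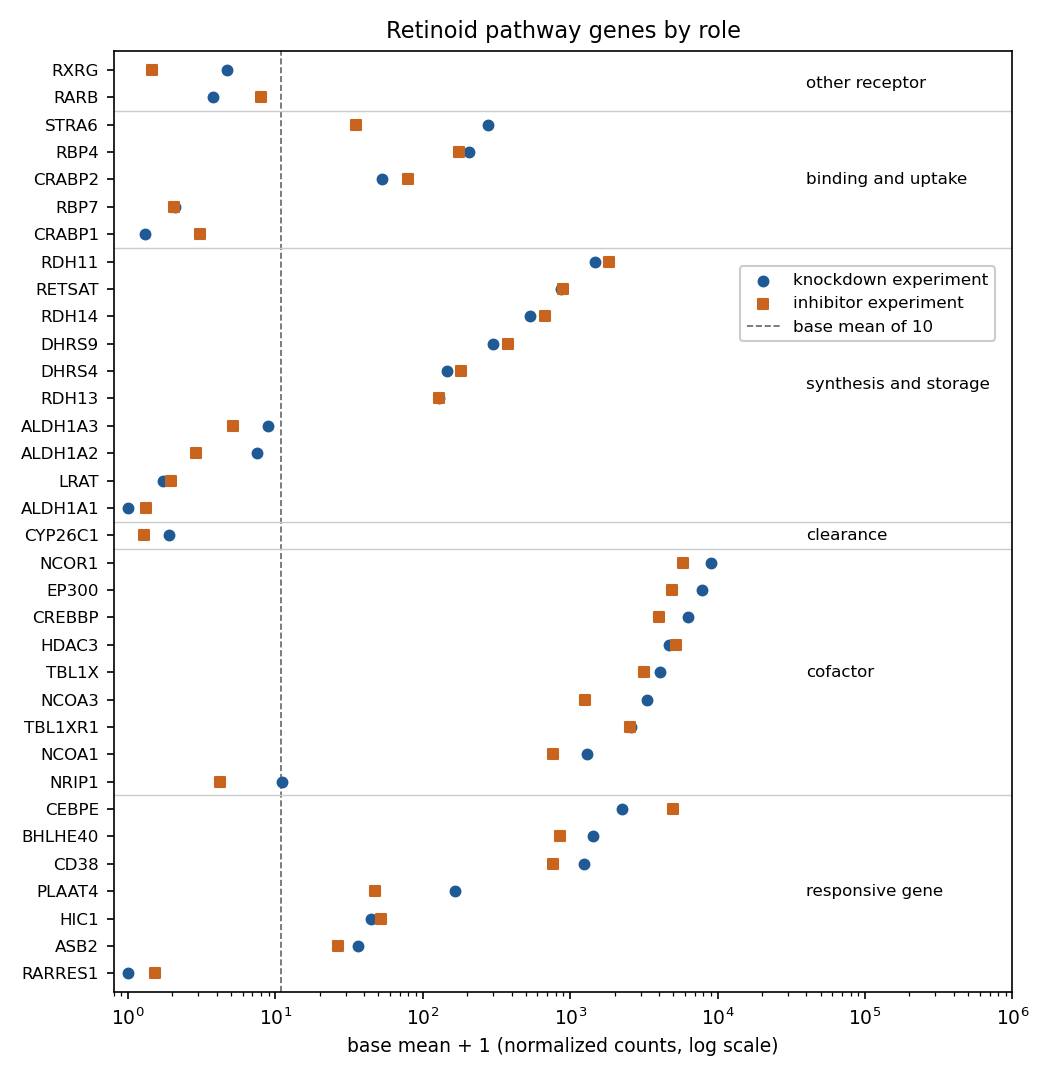
Base mean plus 1 (log scale) of the 34 retinoid pathway genes by role in the knockdown experiment (circles) and the inhibitor experiment (squares). The dashed line marks a base mean of 10, which 24 genes reached in the knockdown and 23 in the inhibitor experiment, and 9 and 8 of the 9 cofactor genes lie beyond it.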

How the data were processed

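NB4 libraries were made with the TruSeq RNA v2 kit and sequenced on a NovaSeq instrument. Per the submitters' processing notes and the study's methods, bcl2fastq 2, FastQC 0.11.5, STAR 2.7 (genome hg38), RSEM and DESeq2 were used. The annotation release is not given in the sources used here. The deposited signal, named base mean, is the RSEM count divided by DESeq2 size factors and averaged by the authors over the libraries of an experiment. The remaining deposited columns hold the authors' own comparisons (log2 fold change, its error, statistic and p-values) and were not used, so no condition was tested. Depth per library is unknown.

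Base means were divided by union exon length from GENCODE 44 (GRCh38). Of 60603 rows, 60261 matched it by gene identifier, and of 19975 protein-coding rows 19887 had a length. Percentiles were taken among 17298 and 17050 protein-coding genes whose base mean exceeded 0 (knockdown and inhibitor). Differences used a pseudocount of 1 and were centred on the median of genes that reached a base mean of 10 in both. Without replicate spread, an alternative value was held to have moved when it differed by over 1.5-fold, or by that fold on the log2 scale. Python 3.11.15, numpy 2.4.6, pandas 2.3.3 and matplotlib 3.10.9 were used. The calculation was tested on simulated data. Samples were grouped by title, and the MC2580 libraries, whose titles read MC280, by their treatment label. The members and gene lists were chosen with earlier results of these data known. Named were all 10 members, GSE1 and KDM1A, the pathway genes of the highest and lowest level per kilobase in each role and, chosen after their values were seen, ALDH1A2, ALDH1A3, LRAT and those under the closing observations. Some genes of the pathway list are not reported here and were left out of its counts.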

Additional observations from a re-analysis of the deposited data

How the results depend on the processing

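Of 89 alternative values computed, 52 stayed within 1.5-fold of the reported value and 37 moved further. Among the 52, 1 changed sign. This was the difference of PML between the experiments, which was 0.03 when centred on the median gene and -0.06 when scaled by the summed base means. With the longest coding sequence as the gene length, the median level of the 10 genes was 185 per kilobase in the knockdown and 234 in the inhibitor experiment, against 72.2 and 89.1 with all exons, because a coding sequence is shorter. By that length 6 of the 10 genes kept their place in the order in the knockdown experiment. By base means with no length correction, 6 kept their place in the knockdown and 5 in the inhibitor experiment. With a pseudocount of 10, 1 of the 10 genes differed by more than 1 (log2) between the experiments, against 3 with a pseudocount of 1, since RARG came to -0.87 and TGM2 to -0.44 while DHRS3 stayed at 1.32. No paired analysis was possible because each gene has 1 value per experiment, and for the same reason leaving out single libraries was not run. The levels of CYP26A1 and TGM2 are limited by their low counts.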

Other observations

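Beside the 10 genes, 4 of the 34 retinoid pathway genes reached a base mean of 10 in both experiments and differed by more than 1 (log2) between them. Of the 34 genes, 24 reached that base mean in the knockdown and 23 in the inhibitor experiment. Among all protein-coding genes that reached it in both, 669 of 12354 (5.42%) differed by more than 1. The 4 genes were not set beside genes of similar level. STRA6, which codes for the cell-surface receptor of the plasma retinol carrier, had base means of 278 in the knockdown and 34.5 in the inhibitor experiment, a difference of -2.91. PLAAT4, a retinoid-responsive phospholipase gene, had base means of 165 and 46.3, a difference of -1.75. NCOA3, which codes for a coactivator of nuclear receptors, had base means of 3343 and 1262, a difference of -1.34. CEBPE went the other way, with base means of 2263 and 4998 and a difference of 1.21. STRA6, PLAAT4 and NCOA3 were thus higher in the knockdown experiment (EV and hairpin libraries pooled, 48 h). CEBPE was higher in the inhibitor experiment (DMSO and MC2580 libraries pooled, 24 h). Transduction, time and treatment cannot be told apart in these pooled means.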
